A study of Rattus norvegicus with 6 samples.

Results

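Zinc finger protein genes were compared between H9c2 cells taken through hypoxia and reoxygenation (H/R) and control H9c2 cells. The genes were chosen by name: coding probes whose accession maps to a rat symbol starting with Zfp or Znf and a number. They numbered 156 probes for 150 genes, out of 15323 coding probes, of which 14274 had a symbol. Each gene was read by 1 probe, the brightest where there were several. Of the 150 genes, 138 were well above background on all 3 files of at least 1 group and were tested, beside 10001 coding genes tested in all. The rule uses names and detection, not the difference between groups, and the Zfp36 family, which shares the symbol but not the fold, is described apart.

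Most proteins named Zfp or Znf carry tandem C2H2 fingers, in which a cysteine pair and a histidine pair hold a zinc ion and the finger reads a few bases of DNA. Many also carry a KRAB domain, which recruits the corepressor Trim28 and with it histone methylation and heterochromatin proteins, and genes of this kind often lie side by side in the genome. Zfp36, Zfp36l1 and Zfp36l2 instead carry a pair of CCCH fingers that bind AU-rich elements in mRNA and bring in the CCR4-NOT deadenylase, so that the bound mRNA is degraded.

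H9c2 is a myoblast line from embryonic rat heart. RNA of 3 control and 3 H/R samples was hybridised in 1 colour (Cy3) to Arraystar arrays that carry coding and long non-coding probes. H/R cells, in DMEM without serum or glucose, were held for 1 h in 1% O2, 5% CO2 and 94% N2, and then for 3 h in normoxia. Controls were kept in normoxia. H9c2 stocks were grown in DMEM with 4500 mg/L glucose and 10% serum, while the medium of the controls during those hours is not stated in the labels, so loss of serum and glucose and loss of oxygen cannot be told apart. The protocol text also names the cortex of mice as the RNA source, against every other label. Of 9 muscle markers 7 were well above background in all 6 files (Myf6 in none), as were 6 of 7 cardiomyocyte markers. Of 8 neuron and glia markers on the array, Rbfox3, Slc17a7, Gad1 and Aqp4 were well above background in no file, and Gfap, Mbp and Mog were in all 6. Of 6 leukocyte markers, Ptprc, Adgre1 and Itgam were in no file and Aif1, Cd68 and Csf1r in all 6. Of 3 endothelial markers, Pecam1 and Cdh5 were in no file, and Tek was in all 6 and was called higher (1.11). The 3 fibroblast markers on the array, Col1a2, Pdgfra and Vim, were in all 6. Among muscle markers 2 were called higher and 1 lower, and among cardiomyocyte markers 1 and 1. No neuron, glia, leukocyte or fibroblast marker was called, but only 3 neuron and glia, 3 leukocyte and 3 fibroblast markers were tested. Their median changes (log2, H/R minus control) were 0.45, 0.24 and 0.40, against 0.07 for all coding genes tested. The part of these cell types in the results was not tested.

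The labels number 3 replicates per group, but replicates 2 and 3 of a group lay at the same slide position and shared 36 background-outlier spots, against at most 1 for any other pair of files. Over the 138 genes, the median absolute difference between replicates 2 and 3 was 0.0188 (log2) in control and 0.0172 in H/R, while any other pair from the same group differed by 0.0895 to 0.100. Each such pair of files was therefore averaged and taken as a single array, so n = 2 arrays per group throughout. Nothing beyond the labels shows that the arrays came from separate cultures, so p-values measure only the spread between arrays. All arrays were on 1 slide. The share of spots well above background was 58.4% to 61.7% in control files and 60.8% to 71.1% in H/R files, and its part in the results was not tested. Values below are log2 intensity relative to the 75th percentile of the same array, and changes are H/R minus control on that log2 scale, with the standard error (SE) and limma's p-value after Benjamini-Hochberg adjustment over 15899 probes, called at 0.05.

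More zinc finger genes rose than fell. Of the 138 genes, 34 (24.6%) rose, against 16.2% of all coding genes tested, and 11 (7.97%) fell, against 9.62%; together they make 45 genes (32.6%), against 25.8%. The median change of the 138 genes was 0.19, and that of all coding genes was 0.07. The change was above 0 for 92 genes (66.7%), against 57.2% of coding genes. All 3 H/R files lay above all 3 control files for 76 genes (55.1%, against 38.2% of coding genes) and below them for 34 (24.6%, against 27.9%). The changes were mostly small: only 5 of the 138 genes (3.62%) were called and changed at least 2-fold, against 6.53% of coding genes. These were Zfp786, Zfp467 and Zfp879, which rose, and Zfp367 and Zfp956, which fell.

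The split between rises and falls depended on how arrays were scaled. Subtracting each array's median instead of its 75th percentile moved the median of all probes from 0.07 to -0.06, and then 18 zinc finger genes (13.0%) rose and 18 (13.0%) fell, against 11% and 14.9% of coding genes. That scaling lowers every gene's change by the same amount, so it can only shrink rises and deepen falls. The 18 rises were all among the 34, and all 11 falls were kept, which is therefore no separate check. The distance between the median of the zinc finger genes and that of all coding genes was thus bound to stay at 0.13. It was 0.08 with normexp background correction, under which no zinc finger gene was called. Fewer genes were called without any 1 of the 4 arrays, and the share of rises was then near or below that of coding genes. Each such fit leaves 1 array in a group. A loss of calls from fewer arrays therefore cannot be told from dependence on that array. The median change was 0.23 without H/R replicate 1 and 0.18 without H/R array 2 (coding genes, 0.06 and 0.07). It was 0.18 without control replicate 1 and 0.20 without control array 2 (coding genes, 0.04 and 0.09). Over the 22 alternatives tried, the change of Zfp786 ran from 1.51 to 1.75. That of Zfp367 ran from -2.65 to -1.79 and that of Zfp36l2 from -1.02 to -0.86. Within the first scan, which holds replicates 1 and 2, the median change was 0.20, and within the second, which holds replicate 3, it was 0.18. Since replicates 2 and 3 were taken as a single array, the second value is no separate repeat of the first.

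**Figure D1:**
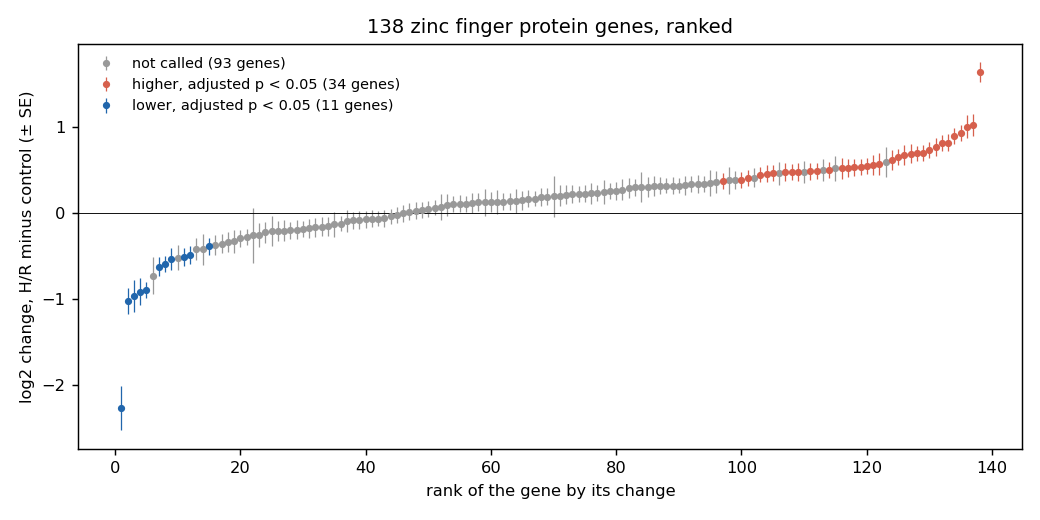
Change of each of the 138 zinc finger genes (log2, H/R minus control, bars are the SE of the fit, n = 2 arrays per group), in order of the change; colours mark the 34 genes that rose and the 11 that fell. Most genes lie within 0.5 of 0, with Zfp367 at -2.28 and Zfp786 at 1.64 at the ends.

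**Figure D2:**
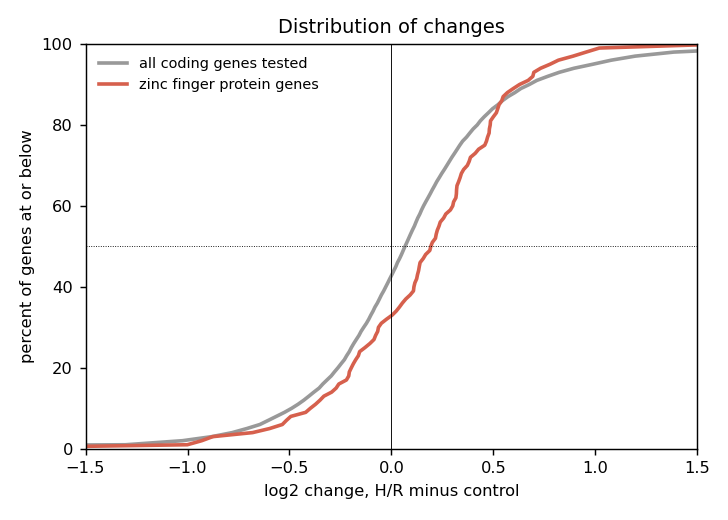
Cumulative percent of genes at or below each change (log2, H/R minus control) for the 138 zinc finger genes and the 10001 coding genes tested. The curve of the zinc finger genes lies to the right over the middle of the range, with medians of 0.19 and 0.07, and reaches the top earlier, since fewer of these genes changed by much.

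The sequences just before the start of the members that the results turn on are given first, so that members of 1 family and the genes at both ends of the range can be set side by side. RefSeq's promoter table (build GRCr8) held 113 of the 138 genes. Shown are the 250 bases before the annotated start, 5′ to 3′ on the gene's strand, with matches to the motifs searched in capitals. The 3 Zfp36 family members come first, as Zfp36 (chr1:92799109-92799358, minus strand), Zfp36l2 (chr6:16242372-16242621, plus strand) and Zfp36l1 (chr6:104668691-104668940, minus strand).
Zfp36: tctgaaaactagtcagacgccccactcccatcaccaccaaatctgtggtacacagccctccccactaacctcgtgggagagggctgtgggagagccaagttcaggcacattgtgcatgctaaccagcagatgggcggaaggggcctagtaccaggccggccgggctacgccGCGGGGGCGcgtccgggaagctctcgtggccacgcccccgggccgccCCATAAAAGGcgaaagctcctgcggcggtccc
Zfp36l2: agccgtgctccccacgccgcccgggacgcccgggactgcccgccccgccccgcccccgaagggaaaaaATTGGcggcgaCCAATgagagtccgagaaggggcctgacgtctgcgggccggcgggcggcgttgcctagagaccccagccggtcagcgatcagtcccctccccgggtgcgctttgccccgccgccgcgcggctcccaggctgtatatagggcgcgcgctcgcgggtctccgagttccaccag
Zfp36l1: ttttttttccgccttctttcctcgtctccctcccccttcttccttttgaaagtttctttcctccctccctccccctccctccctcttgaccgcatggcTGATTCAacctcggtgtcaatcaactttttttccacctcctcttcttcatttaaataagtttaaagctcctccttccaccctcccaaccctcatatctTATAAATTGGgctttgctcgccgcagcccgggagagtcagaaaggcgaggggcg

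Capitals in Zfp36 mark an EGR-type match (GCGGGGGCG) that starts 79 bases before the gene and a CArG box, the site type of serum response factor, 32 bases before it. Zfp36l2 held CCAAT matches 182 and 171 bases before its start and neither of the motifs found in Zfp36. Zfp36l1 held an AP-1 match (TGANTCA, 152 bases), a TATA box (TATAAA, 54 bases) and a CCAAT match that overlaps it (49 bases). GC content was 65.2% in Zfp36, 73.6% in Zfp36l2 and 50.4% in Zfp36l1.

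The gene with the largest fall, Zfp367 (chr17:970646-970895, plus strand), and the gene with the largest rise, Zfp786 (chr4:78171803-78172052, minus strand), are shown as the ends of the range.
Zfp367: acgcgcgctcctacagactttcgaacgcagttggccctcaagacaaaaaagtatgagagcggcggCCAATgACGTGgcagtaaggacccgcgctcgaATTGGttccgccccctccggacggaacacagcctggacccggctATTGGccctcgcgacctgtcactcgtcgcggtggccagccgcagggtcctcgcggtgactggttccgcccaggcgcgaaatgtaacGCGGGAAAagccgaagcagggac
Zfp786: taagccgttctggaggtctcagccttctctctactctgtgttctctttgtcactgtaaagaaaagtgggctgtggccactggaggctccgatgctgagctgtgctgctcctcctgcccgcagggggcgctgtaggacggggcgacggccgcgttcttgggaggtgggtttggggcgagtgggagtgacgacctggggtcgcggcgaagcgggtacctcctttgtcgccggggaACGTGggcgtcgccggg

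Zfp367 held 3 CCAAT matches (185, 153 and 109 bases before the start), the core of the hypoxia response element, ACGTG (179 bases), and an E2F-type match (TTTGGCGC or TTTCCCGC, 23 bases). Zfp786 held 1 ACGTG match, 17 bases before the start, and no other motif searched.

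In all, 10 motifs were searched on both strands: ACTACAA (the core of the site that the protein of Zfp143 binds), ACGTG of the hypoxia response element, the E-box CACGTG that contains it, the EGR-type GCGGGGGCG, the CArG box, the E2F-type letters above, the cAMP response element TGACGTCA, the AP-1 site TGANTCA, the TATA box TATAAA and the CCAAT box. ACTACAA stood before 4 of the 28 genes that rose and have a sequence (14.3%), 0 of the 11 that fell and 4 of the 74 that were not called, against 3.76% of 8241 coding genes tested. The 4 were Zfp458, Zfp652, Zfp691 and Zfp846. Of these, Zfp458 (chr2:86401264-86401513, plus strand), Zfp652 (chr10:81179969-81180218, plus strand) and Zfp691 (chr5:138070270-138070519, minus strand) are shown for that match.
Zfp458: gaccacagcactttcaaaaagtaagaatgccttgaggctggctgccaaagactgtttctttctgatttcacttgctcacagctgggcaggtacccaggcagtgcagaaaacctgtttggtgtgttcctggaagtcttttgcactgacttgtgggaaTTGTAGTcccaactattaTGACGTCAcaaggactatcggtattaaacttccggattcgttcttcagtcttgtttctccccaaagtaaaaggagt
Zfp652: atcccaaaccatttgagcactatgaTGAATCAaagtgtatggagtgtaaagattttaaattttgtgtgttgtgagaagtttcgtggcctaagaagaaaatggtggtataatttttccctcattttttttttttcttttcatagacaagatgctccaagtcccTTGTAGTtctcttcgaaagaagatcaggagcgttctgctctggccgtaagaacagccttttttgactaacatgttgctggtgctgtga
Zfp691: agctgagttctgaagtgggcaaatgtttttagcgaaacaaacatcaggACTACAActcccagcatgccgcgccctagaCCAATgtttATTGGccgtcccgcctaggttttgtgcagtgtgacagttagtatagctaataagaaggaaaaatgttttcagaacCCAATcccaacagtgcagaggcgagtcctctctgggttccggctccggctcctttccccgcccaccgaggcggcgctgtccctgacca

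The match starts 94 bases before Zfp458, 88 before Zfp652 and 202 before Zfp691, on the reverse strand (TTGTAGT) in the first pair. CCAAT stood before 5 of 28 genes that rose (17.9%), 5 of 11 that fell (45.5%) and 35 of 74 not called (47.3%), against 36.5% of coding genes. For GCGGGGGCG the counts were 4 of 28, 0 of 11 and 4 of 74, against 4.07% of coding genes. ACGTG was found in 6 of 28, 5 of 11 and 10 of 74 (coding genes, 21.6%), and CACGTG in 3 of 28, 3 of 11 and 2 of 74 (coding genes, 7.90%). TGACGTCA was found in 3 of 28, 0 of 11 and 1 of 74 (coding genes, 2.89%). The shares for TGANTCA (2 of 28, coding genes 4.90%), TATAAA (3 of 28, coding genes 8.62%), the CArG box (0 of 28, coding genes 1.23%) and the E2F-type letters (0 of 28, coding genes 2.37%) rest on few genes. The window was set and ACTACAA was picked for display after counts had been seen; over 300 bases, 50 of them after the start, ACTACAA was in 5 of the 28 genes that rose. These are matches of letters, not measured binding.

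Of the Zfp36 family, Zfp36l2 fell and its relatives did not pass the test. Zfp36l2 read 3.91, 3.94 and 3.95 in the control files and 3.06, 3.00 and 3.01 in the H/R files. Every H/R file lay below every control file by a margin many times the spread within a group. Its change was -0.89 ± 0.09 (SE, n = 2 arrays per group, limma adjusted p = 0.00600), to 0.538 of control.

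Zfp36, which encodes tristetraprolin, read 1.64, 1.68 and 1.68 in control and 1.59, 1.43 and 1.41 in H/R. The H/R files were all lower, but by little, and the H/R arrays differed from each other by as much as they did from control. The change was -0.16 ± 0.11 (limma adjusted p = 0.329). Zfp36l1 read 0.12, 0.14 and 0.15 in control and -0.03, 0.12 and 0.13 in H/R, so that the groups overlapped, with a change of -0.09 ± 0.10 (limma adjusted p = 0.567). Zfp36l3 was not matched to a probe. Whether Zfp36l2 changed more than its relatives was not tested.

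**Figure D3:**
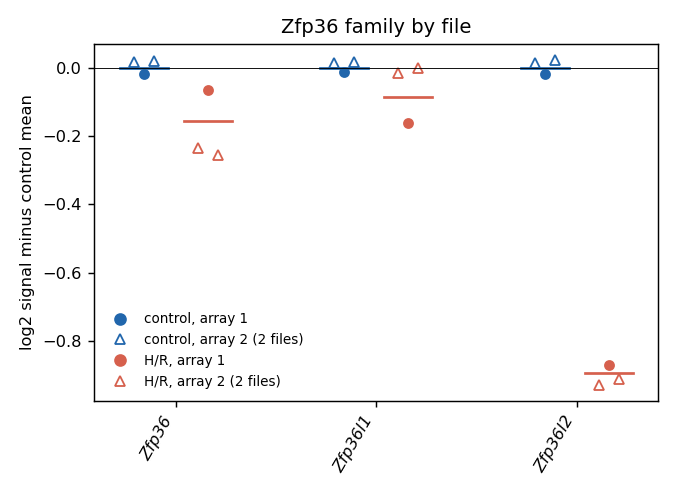
Log2 intensity of Zfp36, Zfp36l1 and Zfp36l2 in each file relative to that gene's control mean; circles are replicate 1, triangles the 2 files of array 2, and bars the group means over arrays. Zfp36l2 lies near -0.89 in all 3 H/R files, while the H/R files of Zfp36 and Zfp36l1 lie close to control.

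Of 36 genes of AU-rich mRNA decay, the machinery that acts with the family, 23 were tested and had a median change of -0.08; 3 of them rose and 2 fell (coding genes, 16.2% and 9.62%). Tia1, which binds AU-rich and U-rich mRNA and represses translation, rose by 0.73 ± 0.11 (limma adjusted p = 0.0132), and Elavl1, which binds AU-rich elements and stabilises mRNA, changed by -0.46 ± 0.09 (limma adjusted p = 0.0259). Among CCR4-NOT subunits, Cnot8, a deadenylase, rose by 0.51 ± 0.11 and Cnot9 changed by -0.54 ± 0.11, while the scaffold Cnot1 was at -0.02 ± 0.09 and not called. Btg1, which binds the deadenylase, rose by 0.43 ± 0.10.

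Among 30 mRNAs known as bound by Zfp36 proteins, 23 were tested, and the median change was 0.05; 9 rose and 5 fell (coding genes, 16.2% and 9.62%). The chemokine mRNAs Ccl2 and Cxcl1 were 57.0-fold and 10.3-fold above control. The immediate early gene Fos was at 0.346 of control. Cxcl2, counted among the 9 rises, was also called higher, and none of its control files was well above background. It was thus kept only through the group in which it is higher and does not stand as support for that count. This list was put together with results of these data known, and its changes are no evidence on Zfp36l2.

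Of the other CCCH genes, with symbols starting Zc3h or Rc3h, 14 were tested and their median change was 0.00; 3 rose, a share near the 16.2% of coding genes. Zc3h12a, which encodes the endonuclease regnase-1 that cuts inflammatory mRNAs, rose 2.75-fold (1.46 ± 0.18, limma adjusted p = 0.00835). Zc3h7b and Zc3h8 rose by 0.47 ± 0.09 and 0.49 ± 0.10.

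Among the C2H2 members, Zfp786 had the largest rise. It read -2.94, -2.72 and -2.71 in control and -1.16, -1.22 and -1.20 in H/R, a 3.12-fold difference (1.64 ± 0.12, limma adjusted p = 0.00298). The groups were far apart, and the H/R files differed by less than the control files did.

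Zfp467, a factor known from the choice of stromal cells between bone and fat, read -0.81, -0.54 and -0.54 in control and 0.34, 0.37 and 0.34 in H/R. It rose 2.04-fold (1.03 ± 0.13, limma adjusted p = 0.00864), with no overlap. Zfp879 rose 2.01-fold, from -4.16, -3.97 and -3.96 to -2.94, -3.20 and -3.13 (1.01 ± 0.13, limma adjusted p = 0.00991). These 3 genes were the only members called with a rise of at least 2-fold.

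Zfp3 read -6.16, -5.99 and -6.17 in control and -5.20, -5.20 and -5.14 in H/R (1.91-fold, limma adjusted p = 0.00572). Zfp46 read -7.13, -7.06 and -7.23 in control and -6.22, -6.32 and -6.20 in H/R (1.86-fold, limma adjusted p = 0.00582). Over the alternatives, the change of Zfp3 ran from 0.77 to 1.19 and that of Zfp46 from 0.67 to 1.22. Zfp46 is 1 of 3 genes just inside the detection rule: it was well above background on 1 of the 3 control files and on all 3 H/R files. It was thus kept only through the group in which it is higher, so its fold and p rest on dim control values and do not stand as support for the count of rises.

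Zfp260 encodes a cardiac C2H2 factor known as an effector of alpha-1 adrenergic signalling that works with GATA4. It read 0.89, 0.96 and 0.96 in control and 1.68, 1.65 and 1.65 in H/R, with no overlap (1.67-fold, 0.74 ± 0.09, limma adjusted p = 0.00903). The rest of the 10 largest rises were Zfp799 (1.77-fold), Zfp90 (1.76-fold), Zfp867 (1.71-fold) and Zfp428 (1.63-fold). In each of them every H/R file was above every control file, a condition for the 10 largest rises that all 34 called rises met.

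The other 24 genes that rose did so by 0.37 (Zfp426) to 0.70 (Zfp316). Zfp521, a large C2H2 regulator of progenitor cells in blood and bone, read 0.41, 0.43 and 0.44 in control and 0.82, 0.99 and 0.99 in H/R (1.39-fold, limma adjusted p = 0.0345). Zfp217, whose protein works in complexes with CoREST and histone deacetylases, rose 1.43-fold (limma adjusted p = 0.0407). Zfp354c, a KRAB gene related to the kidney gene Zfp354a, rose 1.40-fold (limma adjusted p = 0.0291). Under median scaling Zfp521, Zfp217 and Zfp354c were not called. The remaining 21 were Zfp9, Zfp37, Zfp53, Zfp84, Zfp93, Zfp94, Zfp266, Zfp292, Zfp316, Zfp317, Zfp358, Zfp426, Zfp438, Zfp458, Zfp523, Zfp579, Zfp652, Zfp691, Zfp709l1, Zfp846 and Znf846. Over the 34 rises the median was 0.55, or 1.47-fold.

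Zfp367 showed the largest fall. It read 0.17, 0.11 and 0.11 in control and -2.51, -1.77 and -1.76 in H/R, so that all H/R files were far below control but the H/R arrays differed from each other. The level was 0.206 of control (-2.28 ± 0.26, limma adjusted p = 0.00718).

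Zfp956 read -3.97, -4.36 and -4.30 in control and -5.13, -5.28 and -5.14 in H/R, or 0.492 of control (limma adjusted p = 0.0134). Zfp541, known as a chromatin factor of meiotic germ cells, read -5.89, -6.45 and -6.33 in control and -7.12, -7.09 and -7.10 in H/R (0.513 of control, limma adjusted p = 0.0251), and was well above background on all 3 control files but on 2 H/R files, so it was kept only through the group in which it is higher, and the same limit holds. Zfp142 read -3.55, -3.18 and -3.22 in control and -4.39, -4.19 and -4.21 in H/R (0.529 of control, limma adjusted p = 0.0191). The files did not overlap for any of the 3, as the choice of the largest falls required, yet all 3 turned to a higher, uncalled value under normexp.

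Zfp143, a ubiquitous activator that binds promoters and takes part in chromatin loops, read 0.05, 0.02 and 0.04 in control and -0.56, -0.56 and -0.55 in H/R. The files of each group lay close together, and the level was 0.663 of control (-0.59 ± 0.09, limma adjusted p = 0.0143). Zfp598 encodes the ubiquitin ligase that marks collided ribosomes, and it read 1.53, 1.39 and 1.38 in control and 0.98, 0.92 and 0.91 in H/R (0.701 of control, limma adjusted p = 0.0280). Zfp207 encodes BuGZ, which brings Bub3 to kinetochores, and was at 0.764 of control (limma adjusted p = 0.0465). Zfp410, a direct activator of the chromatin remodeller gene Chd4, was at 0.688 of control, but at 0.32 above control under normexp, uncalled. Zfp772 was at 0.648 and Zfp365 at 0.711 of control. With Zfp36l2, these are all 11 genes that fell.

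**Figure D4:**
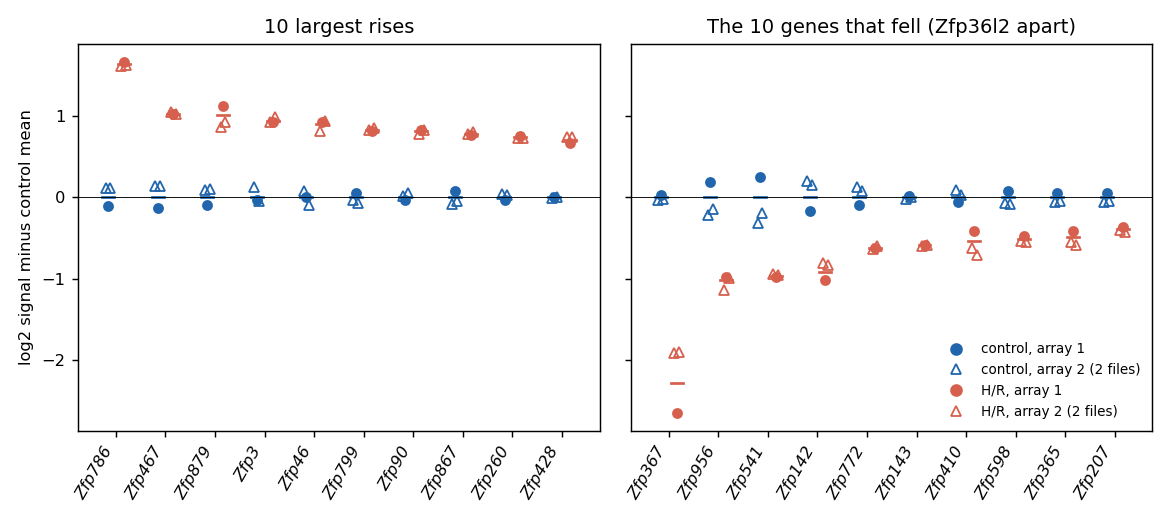
Log2 intensity in each file relative to the gene's control mean, for the 10 largest rises and the 10 C2H2 genes that fell; circles are replicate 1, triangles the 2 files of array 2, and bars the group means over arrays. Groups that do not overlap were a condition for being shown, met by all 34 called rises and by these 10 falls. The H/R arrays of Zfp367 stand farther apart than those of the other genes.

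Of 25 genes listed by name for what they are known to do, 19 were matched on the array and tested, and 8 of those were called. Among all 138 zinc finger genes 32.6% were called, and among coding genes 25.8%. Zfp90, Zfp217, Zfp260, Zfp354c and Zfp521 rose, and Zfp143, Zfp207 and Zfp598 fell, with the values above. Zfp667 is known as Mipu1, a gene described in preconditioned myocardium. It read -5.13, -5.35 and -5.14 in control and -4.99, -4.58 and -4.65 in H/R, with no overlap but a wide spread, and was not called (0.38 ± 0.15, limma adjusted p = 0.141). Zfp354a, described in injured kidney, was at 0.32 ± 0.11 (limma adjusted p = 0.0954). Zfp57, which keeps imprints methylated, was at 0.52 ± 0.14 (limma adjusted p = 0.0582).

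Zfp281, a GC-box binding factor of pluripotent cells, was at -0.37 ± 0.12 (limma adjusted p = 0.0876). Zfp110, a partner of the neurotrophin receptor p75, was at 0.32 ± 0.10 and Zfp703, a repressor known from breast epithelium, at 0.30 ± 0.10, neither called. Zfp622 and Zfp593, both with roles in ribosome assembly, were at 0.27 ± 0.12 and -0.18 ± 0.11 and were not called. Zfp148, Zfp384 and Zfp503 lay within 0.10 of 0: Zfp384 was at -0.04 ± 0.09 and Zfp503 at 0.09 ± 0.13.

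The 93 genes not called ran from -0.73 (Zfp800, limma adjusted p = 0.0689) to 0.60 (Zfp865, limma adjusted p = 0.0687). Without adjustment, 73 of the 138 genes had p under 0.05, and 4186 of the 10001 coding genes did. Zfp384, Zfp385a, Zfp458 and Zfp68 had several probes, which changed in the same direction within each gene; for Zfp68 the probe used missed the threshold (0.48, limma adjusted p = 0.0544) and the other passed it (0.58, limma adjusted p = 0.0345).

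The 12 genes left out by the detection rule were Zfp2, Zfp329, Zfp382, Zfp385b, Zfp385d, Zfp474, Zfp475, Zfp507, Zfp583, Zfp641, Zfp775 and Zfp949. Just outside it, Zfp474 and Zfp583 were well above background on 0 control and 2 H/R files, and Zfp475 on 1 and 2. Just inside it, beside Zfp46, were Zfp865 (2 control and 3 H/R files) and Zfp541 (3 and 2). The other 135 kept genes were well above background in all 6 files, and among them 33 rose and 10 fell. When the fit itself was limited to probes well above background in all 6 files, 39 of the 135 (28.9%) rose and 10 (7.41%) fell. Of the 9421 coding genes in that fit, 16.5% rose and 11.02% fell.

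In the RefSeq gene order, 60 of the 138 genes lie next to another numbered Zfp or Znf gene. Their median change was 0.30, and 16 of the 60 rose and 2 fell. The other 78 had a median of 0.16, and 18 of them rose and 9 fell. All coding genes had a median of 0.07, with 16.2% rising and 9.62% falling. The difference was not tested. Runs of neighbours with at least 2 kept genes numbered 15 and held 37 genes, and in 9 of them the changes of all kept genes had 1 sign, called or not. Since 66.7% of the 138 genes had a change above 0, shared signs are common in short runs and nothing is read from that count. The run of Zfp26, Zfp426, Zfp266 and Zfp846 was at 0.41, 0.37, 0.47 and 0.53, of which the last 3 were called. Zfp354c and Zfp879, side by side, rose by 0.48 and 1.01. Nearness did not go with a shared direction everywhere: the run that starts with Zfp786 (1.64) also holds Zfp398 (-0.10), Zfp282 (0.32), Zfp956 (-1.02), Zfp777 (-0.06) and Zfp746 (0.50). Related genes of a run can also share sequence, and probes were not checked for cross-hybridisation.

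By signal, the 46 dimmest, 46 middle and 46 brightest genes had 14, 15 and 5 rises and 5, 3 and 3 falls. Coding genes in the same signal ranges rose in 19.8%, 20.9% and 11.8% of cases and fell in 7.36%, 13.7% and 11.1%. The median change was 0.15, 0.29 and 0.13, against 0.13, 0.05 and 0.01 for coding genes in those ranges.

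Of 33 genes listed for the corepressor that KRAB proteins recruit, 19 were tested and had a median change of -0.02; 1 of them rose and 1 fell (coding genes, 16.2% and 9.62%). Trim28 itself read close to control (0.10 ± 0.12, limma adjusted p = 0.566), as did Cbx5, which encodes heterochromatin protein HP1 alpha (-0.05 ± 0.14). Suv39h2 at -0.54 ± 0.20 and the DNA methyltransferase gene Dnmt3a at -0.35 ± 0.10 were not called (limma adjusted p = 0.120 and 0.0683). Smarcad1, a chromatin remodeller that binds Trim28, rose 1.56-fold (limma adjusted p = 0.0122), and the histone H3 methyltransferase gene Suv39h1 was at 0.658 of control (limma adjusted p = 0.0138), turning to an uncalled 0.49 above control under normexp. Among genes with symbols starting Zbtb, Zscan or Zkscan, whose proteins join the same fingers to BTB or SCAN domains, 30 of 40 were tested and had a median change of 0.21; 4 rose and 1 fell (coding genes, 16.2% and 9.62%, with a median of 0.07). The KRAB and SCAN gene Zkscan1 rose 2.06-fold (limma adjusted p = 0.00435). Zbtb20, counted among the 4 rises, was called higher, but no control file had it well above background, so no fold is given. It was kept only through the group in which it is higher and does not stand as support for that count.

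**Figure D5:**
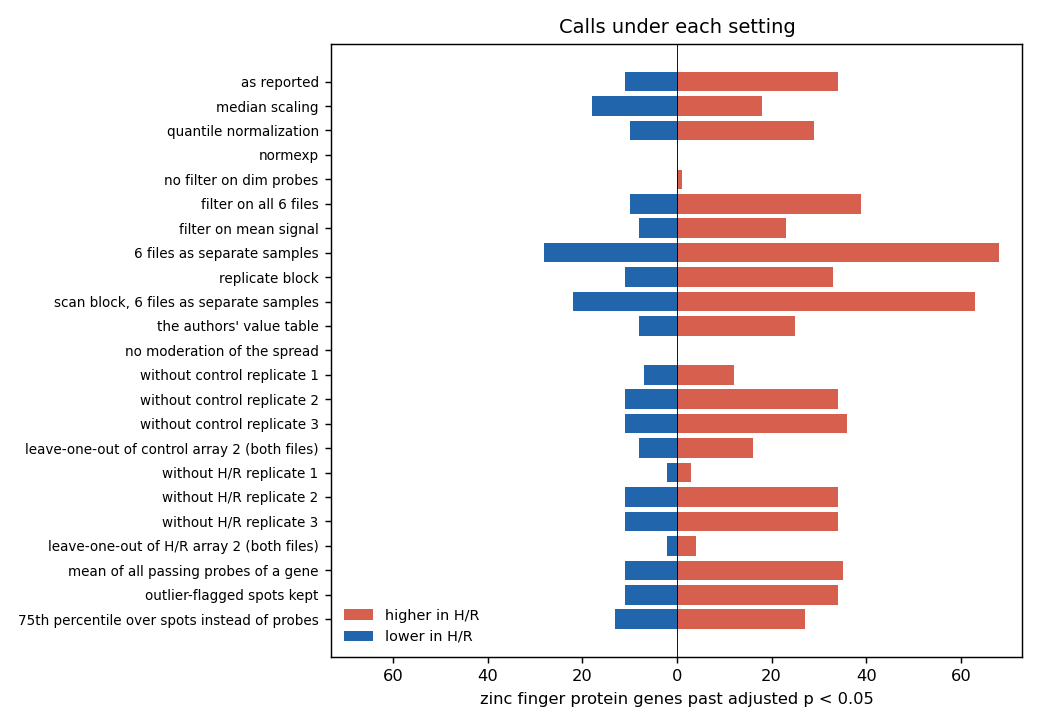
Number of zinc finger genes past an adjusted p of 0.05 (limma, Benjamini-Hochberg) under the reported setting and 22 alternatives; bars to the right count rises and bars to the left falls. The reported setting gives 34 and 11, the counts drop to 0 with normexp and without moderation, and they reach 68 and 28 when all 6 files are taken as separate samples.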

How the data were processed

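RNA of 3 control and 3 H/R samples of H9c2 cells was measured on 1-colour Agilent arrays of Arraystar's design. Per the file headers, the authors extracted spot intensity with Agilent Feature Extraction 11.0.1.1, already corrected for background within the array. Deposited flags, coded 0 or 1 and of a kind other than a measurement, mark spots as outliers or as well above background. A table of log2 values for 16841 probes, deposited by the authors with its normalization not stated, served as an alternative.

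Processed intensity was put on the log2 scale, the mean over each probe's spots without outlier flags was taken, and each array's 75th percentile over probes was subtracted. A first run took that percentile over spots and gave 27 rises and 13 falls; the percentile over probes (34 and 11) was made the reported setting after both counts had been seen, since it matches an earlier processing of these data. Replicates 2 and 3 were averaged (avearrays), and probes well above background on all 3 files of a group (15899) were fitted with lmFit and eBayes (limma 3.58.1 in R 4.3.3; residual degrees of freedom 2, prior 2.86), H/R against control, two-sided. In data simulated for this comparison over 15899 probes, 9 of 50 probes changed by 0.5 and 48 of 50 changed by 1 were called, with 19 unchanged probes among 175 calls. The simulation held far fewer changed probes than were called in the data, so its adjustment was stricter and its recovery does not carry over. The number of arrays limits the precision.

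Symbols came from RefSeq accessions (GRCr8). Named genes are the Zfp36 family, the 10 largest called rises and falls with groups that do not overlap, 25 genes chosen by name, and members of 6 lists; the single genes named beyond these were chosen after their values were seen. The members and lists were chosen with earlier results of these data known. Classes by protein domain, which had been planned, were not analysed here. For normexp (offset 50), median spot and background signals were used in place of the planned mean. In all, 22 alternatives were tried. A gene of 1 list is not reported here.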

Additional observations from a re-analysis of the deposited data

How the results depend on the processing

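Against 34 rises, 11 falls and a median change of 0.19, median scaling gave 18, 18 and 0.0652, and normexp gave 0, 0 and 0.31, with 23 genes at an unadjusted p under 0.05. Without a filter on dim probes the counts were 1 and 0 (60 genes at an unadjusted p under 0.05). There 0.667% of zinc finger genes rose, below the 2.29% of coding genes. Without moderation of the spread the counts were 0 and 0 (56). No coding gene was called in that setting or with normexp. With 6 files as separate samples the counts were 68 and 28 (49.3% and 20.3%, coding genes 31.3% and 23.0%). With a scan block on the same files they were 63 and 22 (45.7% and 15.9%, coding genes 28.4% and 20.2%). The remaining settings stayed within 1.5 times for both counts: quantile normalization (29 and 10), the filter on all 6 files (39 and 10) and on mean signal (23 and 8), the authors' deposited table (25 and 8 of 137 genes), all probes of a gene averaged (35 and 11), outlier spots kept (34 and 11), and the percentile over spots (27 and 13), which was the first setting run. Leaving out replicates or arrays gave 3 to 36 rises and 2 to 11 falls, with medians of 0.18 to 0.23.

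Under normexp, Zfp956 (0.44), Zfp541 (0.91), Zfp142 (0.15), Zfp410 (0.32) and Suv39h1 (0.49) turned from a called fall to an uncalled higher value; the cause was not tested. Zfp36 was called lower in 1 of 22 alternatives, with adjusted p from 0.0430 to 0.779. With a replicate block (array 1 or 2) 33 genes rose and 11 fell (23.9% and 7.97%, coding genes 16.2% and 10.1%). Of them, 31 and 9 were shared with the reported calls. Deviations of same-numbered arrays correlated at r = 0.153 over all probes and 0.0498 over zinc finger genes, and with 2 pairs the numbers were not taken as a pairing.

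In simulation, 9 of 50 probes changed by 0.5 were called, but it gave only 175 calls over 15899 probes. In the data, 2579 of 10001 coding genes were called, so the adjustment was less strict and that recovery does not carry over. Among zinc finger genes near 0.5, Zfp458 (0.50) was called and Zfp57 (0.52) was not. With 2 arrays per group, a missed call does not show that a gene was unchanged.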
